A study of Mus musculus with 2 samples.

Results

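T cell fate transcription factors are the nuclear proteins that set whether a T cell stays stem-like, becomes a killer or memory cell, or enters exhaustion. The 9 genes described here, Tcf7, Lef1, Tox, Tbx21, Eomes, Id2, Id3, Bach2 and Prdm1, were chosen by symbol for these known roles from the 32285 genes counted, and all 9 were detected. CD45+ cells were sorted from MC38 tumors, a mouse colon cancer line growing under the skin on both flanks of male C57BL/6 mice, and profiled cell by cell in 10x droplets, where the 3′ ends of transcripts are read and each molecule is counted once by its unique molecular identifier (UMI). In both groups the right tumor was treated by microwave ablation (MWA) at about 300 mm3 and the left tumor, itself not ablated, was taken 8 days later. The MWA group received an isotype control antibody, and the MWA plus TIGIT group received anti-TIGIT antibody into the peritoneum every 3 days from 1 day after MWA. There was 1 library per group and the sources used here do not give the number of mice in each, so no test between the groups was possible. Values are CPM, the usual depth-scaled level of a gene within the summed UMIs of a class of cells, in the order MWA then MWA plus TIGIT unless stated. Intervals in parentheses are exact 95% intervals that cover counting error only.

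TCF1, encoded by Tcf7, and its relative LEF1 bind DNA through an HMG box and keep T cells in a naive, memory or stem-like state in which they can renew. Effector cells lose them and turn on the T-box factors T-bet, encoded by Tbx21, and EOMES, together with BLIMP1, encoded by Prdm1. TOX, another HMG box protein, is induced by chronic antigen and maintains exhausted T cells, while ID2 and ID3 hold back the E proteins and BACH2 represses effector genes. In tumors, the balance between these factors is what separates the T cells that can renew from those that kill and those that are spent.

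The libraries held 10217 and 10190 barcodes with 66152465 and 78751205 UMIs, of which 9231 and 9127 cells were kept, and 37 barcode sequences occur in both. Clustering without the 9 genes gave 15 clusters of 8146 T and NK cells, and 10 classes were named from fixed markers with the ending "-like", since the annotation of the study was not used here. The CD8 classes were stem-like or naive-like (195 and 218 cells), effector-like (796 and 973), exhausted-like (288 and 194), interferon-induced-like (152 and 169) and cycling-like (525 and 536). The others were CD4 T-like (904 and 740), regulatory T-like (731 and 589), Il17a gamma-delta T-like (115 and 114), Klra gamma-delta T-like (201 and 153) and NK-like cells (167 and 118). The stem-like or naive-like class was not pure, with Cd8b1 at 408 and 392 CPM beside Cd4 at 77.0 and 85.1 CPM. Interferon-induced-like cells had Cd4 at 87.5 and 81.7 CPM and Foxp3 at 43.8 and 77.2 CPM. Cycling-like cells had Cd4 at 30.3 and 33.3 CPM and Foxp3 at 18.2 and 16.8 CPM. The classes called CD8 and their sum therefore also hold CD4 and regulatory T cells. Klra gamma-delta T-like cells had Trdc at 210 and 290 CPM, Trac at 268 and 330 CPM and Cd8b1 at 38.8 and 111 CPM, so this class may be mixed too. Regulatory T-like cells carried Foxp3 at 456 and 533 CPM, and Ncr1 stood at 268 and 231 CPM in NK-like cells. C1qa, a macrophage gene that T cells lack, stood at 74.1 to 157 CPM in these classes and at 4782 and 5209 CPM in macrophage or monocyte-like cells. In those macrophage or monocyte-like cells Tcf7, Lef1, Tox, Tbx21 and Eomes were each under 1 CPM, while Id2 was at 285 and 256 CPM, Prdm1 at 19.8 and 18.2 CPM, Id3 at 12.1 and 7.81 CPM and Bach2 at 6.20 and 6.11 CPM. The part of free RNA in the values below was not tested.

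The genes of the stem-like state, Tcf7 (GRCm38 chr11:52252371-52283014) and Lef1 (chr3:131110471-131224356), were highest in stem-like or naive-like cells in both libraries, beyond counting error against the next class. Tcf7 stood there at 345 CPM (298 to 397) and 403 CPM (358 to 451), and this class held 15.7% and 21.3% of all Tcf7 UMIs but 3.44% and 4.50% of all UMIs of the named cells. Klra gamma-delta T-like cells at 113 and 145 CPM, CD4 T-like cells at 114 and 121 CPM and Il17a gamma-delta T-like cells at 91.0 and 131 CPM followed, without a clear order among them. Effector-like (85.2 and 70.2 CPM), interferon-induced-like (70.4 and 63.9 CPM), NK-like (52.6 and 72.1 CPM) and cycling-like cells (54.2 and 63.7 CPM) lay next. Il17a gamma-delta T-like cells exceeded effector-like cells 1.87-fold (1.35 to 2.54) in the MWA plus TIGIT library, and not beyond counting error in the MWA library (1.07, 0.718 to 1.54). From effector-like to cycling-like cells no neighbors differed beyond counting error. In the MWA library, though, the intervals of effector-like (74.8 to 96.7) and cycling-like cells (47.1 to 62.1) did not overlap. Exhausted-like cells had 10.9 CPM (6.47 to 17.3) and 15.9 CPM (9.58 to 24.8), so that Tcf7 was 31.6-fold (19.5 to 54.4) and 25.3-fold (15.9 to 42.6) higher in the stem-like class. The lowest level of all was in regulatory T-like cells, with 8 UMIs, 4.26 CPM, in the MWA library and 1 UMI in the MWA plus TIGIT library. Within the MWA library CD4 T-like cells exceeded regulatory T-like cells 26.7-fold (13.4 to 62.4). With every cell thinned to 1000 UMIs, the share of cells carrying Tcf7 was 25.7% (19.6 to 32.6) and 30.2% (24.2 to 36.8) of stem-like cells, 10.8% and 11.1% of CD4 T-like cells, and 1.41% and 2.07% of exhausted-like cells. Before thinning the share was 58.5% and 63.3% in stem-like cells, at medians of 2781 and 3170.5 UMIs, and the thinned share in macrophage or monocyte-like cells, of 7520.0 and 9362 UMIs, was 0.120% and 0.0228%.

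Lef1 followed Tcf7 at the top and parted from it further down. It stood at 291 CPM (248 to 338) and 245 CPM (210.2 to 283) in stem-like cells, then at 69.1 and 71.0 CPM in Klra gamma-delta T-like, 70.7 and 57.5 CPM in CD4 T-like and 60.7 and 53.7 CPM in effector-like cells. Regulatory T-like cells, nearly without Tcf7, kept Lef1 at 43.7 CPM (34.7 to 54.2) and 38.9 CPM (30.4 to 49.1). Their Lef1 level was lower than that of CD4 T-like cells by 1.62-fold (1.25 to 2.11) and 1.48-fold (1.11 to 1.98). Exhausted-like cells had 6 Lef1 UMIs in each library, 3.64 and 5.02 CPM. Among the stem-like cells, those with a Cd8a or Cd8b1 UMI and no Cd4 UMI had Lef1 at 325 and 254 CPM, and those with the reverse at 86.6 and 166 CPM from 7 and 22 UMIs, whereas Tcf7 was at 307 and 340.3 CPM in the former and 359 and 408 CPM in the latter. The Lef1 ratio of the former to the latter was 3.75 (1.75 to 9.61) in the MWA library and 1.53 (0.948 to 2.56), within counting error, in the MWA plus TIGIT library, and for Tcf7 it was 0.855 (0.555 to 1.35) and 0.833 (0.599 to 1.17).

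**Figure D1:**
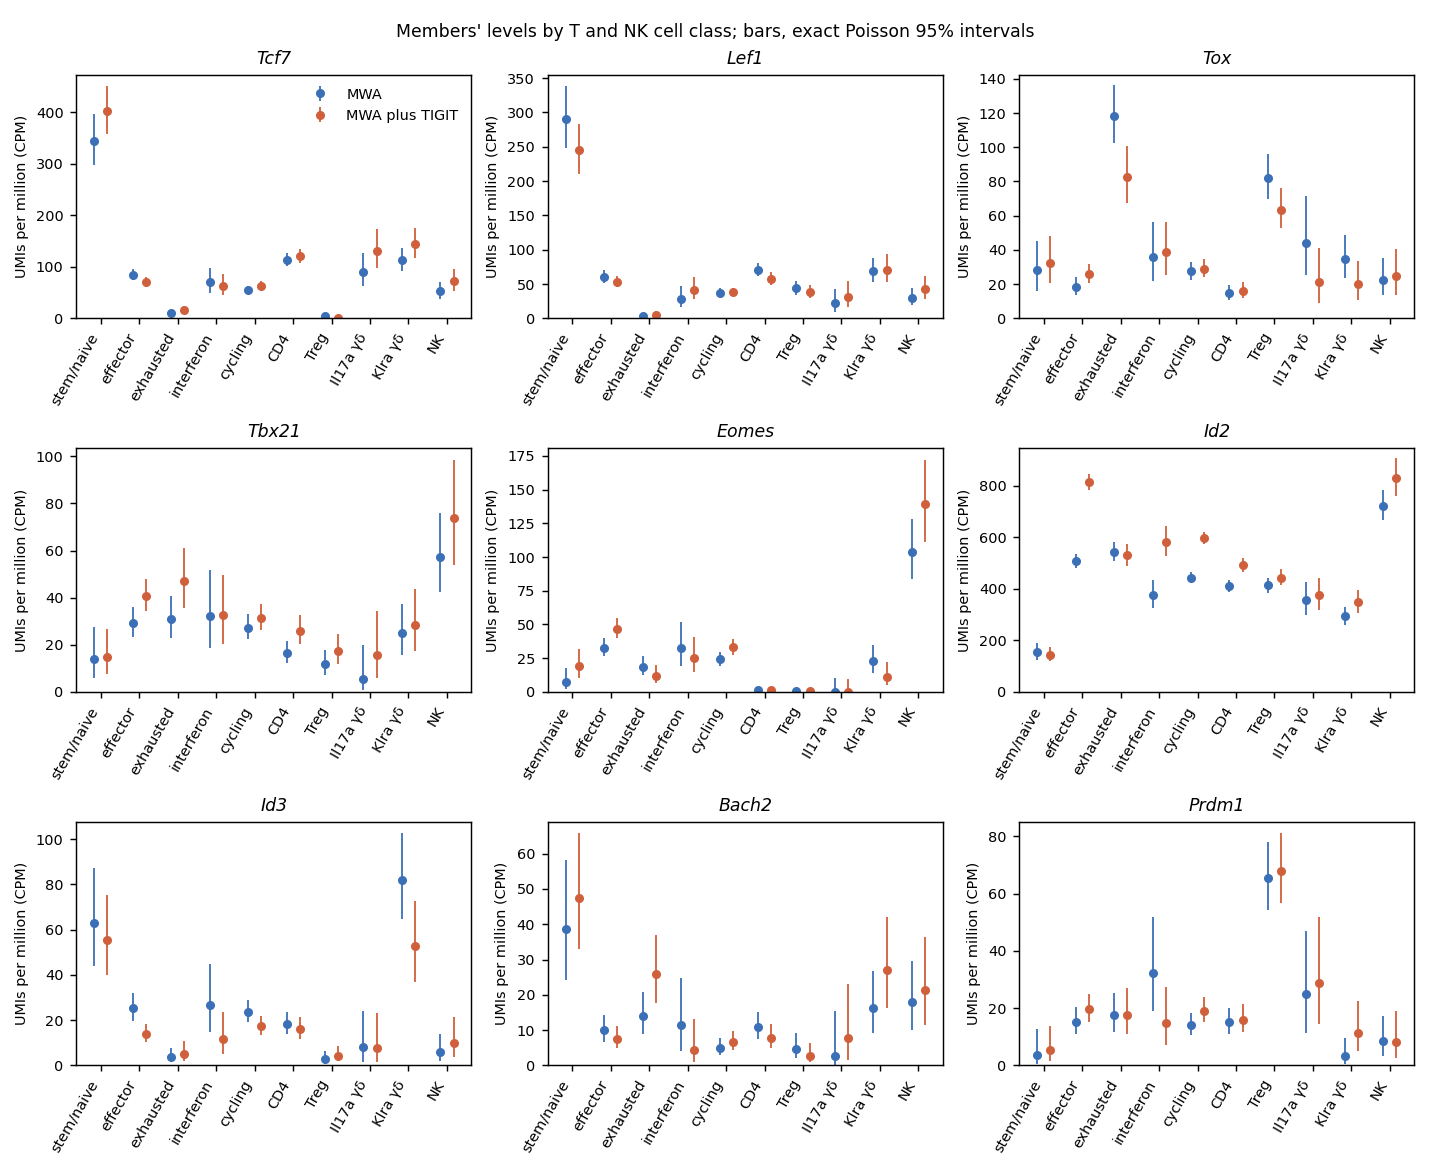
Level of each of the 9 transcription factor genes (1 panel each, y axis in CPM, linear from 0 and scaled per gene) in the 10 classes of T and NK cells, with 1 point per library, MWA in blue and MWA plus TIGIT in orange, and bars for exact Poisson 95% intervals. Tcf7 and Lef1 peak in stem-like or naive-like cells, Tox in exhausted-like and then regulatory T-like cells, Tbx21 and Eomes in NK-like cells, and Prdm1 in regulatory T-like cells.

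Cells with a Tcf7 UMI were few in the exhausted-like class, 25 of 482 over both libraries, 14 from MWA and 11 from MWA plus TIGIT, but they differed from the rest. Ccr7, the lymph node homing receptor, was 7.71-fold (5.53 to 10.6) higher in them, Slamf6, a receptor of progenitor exhausted cells, 3.55-fold (1.44 to 7.69), and the chemokine gene Xcl1 1.55-fold (1.40 to 1.71). The Xcl1 ratio was 2.15 in the MWA library and 1.09 in the MWA plus TIGIT library. Lower in them were Gzmb, encoding granzyme B, at a ratio of 0.164 (0.0873 to 0.282), the inhibitory receptor gene Havcr2 at 0.287 (0.0775 to 0.743), Ifng at 0.427 (0.282 to 0.620) and Id2 at 0.441 (0.309 to 0.610). Tox itself was at 92.4 CPM with and 104 CPM without a Tcf7 UMI, a ratio of 0.888 (0.479 to 1.52), so the few Tcf7 cells of this class carried Tox at a level not distinguishable from the others. The median UMIs per cell were 5817 with and 5366 without a Tcf7 UMI. Fscn1 and Ccl22, genes of mature dendritic cells, which also carry Ccr7, had 0 UMIs in the 25 cells.

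The same division appeared in effector-like cells, where 363 cells had a Tcf7 UMI and 1406 did not. With a Tcf7 UMI, Ccr7 was 3.12-fold (2.22 to 4.4), Bach2 1.99-fold (1.09 to 3.54), Slamf6 1.98-fold (1.32 to 2.94), Il7r 1.58-fold (1.33 to 1.88) and Lef1 1.49-fold (1.18 to 1.87) higher. Gzma, encoding granzyme A, was at 404 CPM with and 1490.4 CPM without, a ratio of 0.271 (0.249 to 0.295), and the ratios were 0.499 (0.454 to 0.548) for Gzmb, 0.565 (0.316 to 0.954) for Prdm1 and 0.718 (0.664 to 0.776) for Id2. In CD4 T-like cells with a Tcf7 UMI (500 of 1644), Id3 was 1.74-fold (1.16 to 2.60) and Il7r 1.39-fold (1.26 to 1.53) higher, and Gzma had a ratio of 0.310 (0.208 to 0.448). Tcf7 cells had medians of 3902 against 3166.5 UMIs in the effector-like class and 3787 against 3222.5 in the CD4 T-like class. These splits were chosen among 6 of the 9 genes after the levels had been seen, and cells of 1 library are not replicates.

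**Figure D2:**
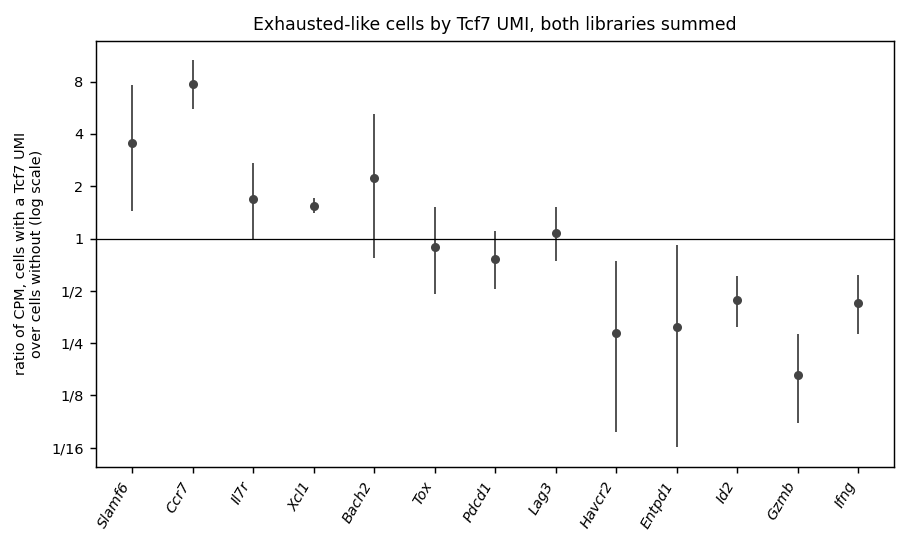
Ratio of CPM in exhausted-like cells with a Tcf7 UMI over those without, on a log axis, for 13 genes with both libraries summed, with exact 95% counting intervals as bars and a line at 1. Slamf6, Ccr7 and Xcl1 lie above 1, Havcr2, Entpd1, Id2, Gzmb and Ifng below it, and the Tox interval crosses it.

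Tox (chr4:6686353-6991557), the gene of the exhaustion factor, was highest in exhausted-like cells, at 118 CPM (102 to 136) and 82.9 CPM (67.4 to 101). Regulatory T-like cells came second at 82.0 CPM (69.5 to 96.0) and 63.6 CPM (52.6 to 76.3), which was below the exhausted-like level beyond counting error in the MWA library (ratio 1.44, 1.16 to 1.79) and not in the MWA plus TIGIT library (1.3, 0.986 to 1.72). These 2 classes stood above the 8 others, which ranged from 14.7 to 44.1 CPM. Of all Tox UMIs, exhausted-like cells held 29.7% and 17.9%, and regulatory T-like cells 23.5% and 20.9%. Exhausted-like cells exceeded effector-like cells 6.41-fold (4.70 to 8.88) in the MWA library and 3.21-fold (2.39 to 4.32) in the MWA plus TIGIT library. Regulatory T-like cells exceeded CD4 T-like cells, the lowest class, 5.58-fold (4.0 to 7.91) and 3.98-fold (2.80 to 5.75). Within cycling-like cells, Tox was at 37.2 and 39.1 CPM in the cluster led by histone, Birc5 and Ube2c transcripts and at 14.5 and 16.4 CPM in the cluster led by Mcm transcripts, a ratio of 2.56 (1.61 to 4.23) and 2.39 (1.56 to 3.77). Foxp3 was also higher in the histone cluster, at 29.5 and 26.4 CPM against 3.02 and 4.51 CPM, and the part of regulatory T cells was not tested. In effector-like cells a Tox UMI marked 123 cells, with Lag3 2.28-fold (1.36 to 3.66) and Xcl1 1.55-fold (1.25 to 1.90) higher and Gzma at a ratio of 0.437 (0.386 to 0.493) against the other 1646.

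The T-box factor genes were led by NK-like cells. Tbx21 (chr11:97098071-97115331), encoding T-bet, the driver of Ifng and of terminal effector cells, stood there at 57.4 CPM (42.3 to 76.1) and 73.7 CPM (53.8 to 98.6). Exhausted-like (30.9 and 46.9 CPM), effector-like (29.1 and 40.6 CPM), interferon-induced-like (32.4 and 32.7 CPM), cycling-like (27.2 and 31.4 CPM) and Klra gamma-delta T-like cells (24.8 and 28.4 CPM) followed, with no neighbors in the order of mean levels that differed beyond counting error. Classes further apart in this order were not compared. The effector-like class joined a cluster led by Cx3cr1, Zeb2 and S1pr5 and a larger one led by Trav16 and Ly6c2, and Tbx21 was 2.44-fold (1.32 to 4.26) and 1.55-fold (1.02 to 2.29) higher in the former. In the effector-like class the 203 cells with a Tbx21 UMI had Klrg1, a marker of terminal effectors, 1.58-fold (1.07 to 2.27) higher.

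Eomes (chr9:118478212-118486132), the T-box factor shared by NK and memory cells, was more restricted. It stood at 104 CPM (83.3 to 128) and 139 CPM (111 to 172) in NK-like cells, 3.18-fold (2.35 to 4.32) and 2.98-fold (2.26 to 3.90) above effector-like cells, which had 32.7 and 46.7 CPM. NK-like cells held 24.8% and 19.5% of the Eomes UMIs and 5.03% and 3.71% of all UMIs of the named cells. Eomes was near absent from the CD4 lineages, with 5 and 3 UMIs in CD4 T-like cells (1.56 and 1.07 CPM) and 1 UMI per library in regulatory T-like cells. Il17a gamma-delta T-like cells had 0 Eomes UMIs in both libraries, where 3 UMIs would be 8.27 and 7.88 CPM, while Klra gamma-delta T-like cells had 22.7 CPM (14.0 to 34.6) and 11.4 CPM (4.91 to 22.4). Effector-like cells with an Eomes UMI, 202 in number, had Havcr2 2.16-fold (1.24 to 3.64) and Lef1 1.42-fold (1.07 to 1.87) higher, and Cx3cr1 at a ratio of 0.534 (0.340 to 0.803). Over classes and libraries the levels of Tbx21 and Eomes went together with Pearson r of 0.83 over 20 points that share libraries.

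Id2 and Id3 encode inhibitors that pair with E proteins and keep them off DNA, ID2 being the form of effector and innate cells and ID3 that of naive and memory cells. Their levels tended in opposite directions over the classes (r of −0.66 over the same 20 points). Regulatory T-like and Il17a gamma-delta T-like cells, however, were in the lower part of the order for both. E proteins bind short palindrome-like motifs called E-boxes. The RefSeq promoters of both genes, windows of 300 bases that end shortly after the RefSeq start in build GRCm38.p6, are shown for that reason. This start lies 1048 bases from the start of the gene span given below for Id2, and 325 bases for Id3. Any match to the E-box letters CAGCTG, or on either strand to the second form searched, CACCTG, is in capitals. The windows lie at chr12:25096043-25096342 on the minus strand for Id2 and chr4:136143572-136143871 on the plus strand for Id3.
Id2: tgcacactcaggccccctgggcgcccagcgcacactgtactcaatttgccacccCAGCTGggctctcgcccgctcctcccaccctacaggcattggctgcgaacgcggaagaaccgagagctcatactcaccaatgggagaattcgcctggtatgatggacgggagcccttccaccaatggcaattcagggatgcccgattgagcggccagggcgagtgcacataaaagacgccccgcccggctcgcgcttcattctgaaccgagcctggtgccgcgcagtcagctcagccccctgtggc
Id3: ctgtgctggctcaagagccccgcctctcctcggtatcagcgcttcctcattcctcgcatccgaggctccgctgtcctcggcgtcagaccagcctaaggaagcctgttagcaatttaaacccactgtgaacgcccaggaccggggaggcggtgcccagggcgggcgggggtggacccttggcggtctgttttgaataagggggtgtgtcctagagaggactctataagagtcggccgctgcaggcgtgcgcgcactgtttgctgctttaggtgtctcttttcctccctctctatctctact
The Id2 window holds 1 CAGCTG, at base −196 from the RefSeq start, and the Id3 window holds neither motif. On both strands CAGCTG occurs in 16.3% and CACCTG in 20.2% of 32851 such windows, so a match is common. Of the 8 members with a RefSeq window, Tcf7, Lef1, Tbx21 and Prdm1 also hold at least 1 of the E protein motifs, Eomes and Bach2 hold none, and Bach2 alone holds, on 1 strand, CTTTGA, the core that TCF1 and LEF1 bind, which 16% of the windows hold. The RefSeq starts used for Bach2 and Prdm1 lie 178631 and 69753 bases from the starts of their gene spans.

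Id2 (chr12:25093799-25097140) was found in every class. It was highest in NK-like cells, at 724 CPM (667 to 784) and 832 CPM (761 to 908), followed by effector-like cells at 507 CPM (481 to 534) and 815 CPM (785 to 846). NK-like cells exceeded effector-like cells 1.43-fold (1.29 to 1.57) in the MWA library, and the ratio was 1.02 (0.927 to 1.12) in the MWA plus TIGIT library. Stem-like cells were lowest, at 156 and 145 CPM, so that effector-like cells stood 3.26-fold (2.63 to 4.08) and 5.64-fold (4.65 to 6.90) above them. The classes between ranged from 294 to 598 CPM. Id2 is not restricted to lymphocytes, and dendritic-like cells had 694 and 438 CPM.

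Id3 (chr4:136143497-136145755) was highest in Klra gamma-delta T-like cells, at 82.0 CPM (64.6 to 103) and 52.6 CPM (37.0 to 72.4), and in stem-like cells, at 63.0 CPM (44.1 to 87.3) and 55.4 CPM (39.8 to 75.1), with no difference between these beyond counting error in either library. Stem-like cells stood 2.50-fold (1.63 to 3.78) and 3.98-fold (2.56 to 6.16) above effector-like cells, which had 25.2 and 13.9 CPM. The classes named gamma-delta differed, since Il17a gamma-delta T-like cells had 3 Id3 UMIs in each library, and the Klra class was 9.92-fold (3.27 to 49.1) and 6.67-fold (2.11 to 33.8) higher. The cells with Cd4 in the mixed Il17a class were not separated out. Exhausted-like and regulatory T-like cells had 2.66 to 5.02 CPM. B-like cells carried Id3 at 172 and 51.5 CPM, from 30 and 12 UMIs.

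Bach2 (chr4:32238804-32586108), a repressor that keeps naive and memory cells quiescent, was scarce, with 173 and 184 UMIs over all named T and NK cells. It was highest in stem-like cells at 38.5 CPM (24.1 to 58.3) and 47.3 CPM (32.9 to 65.8), which exceeded effector-like cells, at 9.94 and 7.55 CPM, 3.87-fold (2.11 to 7.02) and 6.27-fold (3.67 to 10.8). Exhausted-like cells had 14.0 CPM (8.85 to 20.9) and 26.0 CPM (17.6 to 36.8), above the effector-like level 3.44-fold (1.98 to 6.03) in the MWA plus TIGIT library and not beyond counting error in the MWA library (1.40, 0.772 to 2.53). Regulatory T-like cells had 4.79 and 2.74 CPM, from 9 and 5 UMIs, among the low classes in both libraries. Bach2 is also a B cell gene, and B-like cells had 149 and 94.5 CPM.

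Prdm1 (chr10:44437177-44528501), encoding BLIMP1, which BACH2 holds back in lymphocytes, was high in a class where Bach2 was scarce. Bach2 was also scarce in cycling-like cells, at 4.93 and 6.67 CPM, where Prdm1 was not high, and a relation between the 2 genes was not tested. Regulatory T-like cells led with 65.5 CPM (54.4 to 78.1) and 68.0 CPM (56.6 to 81.1), 4.36-fold (3.1 to 6.22) and 4.26-fold (3.00 to 6.13) above CD4 T-like cells, and stem-like cells had 2 and 4 UMIs, 3.50 and 5.40 CPM. Klra gamma-delta T-like cells, at 3.24 and 11.4 CPM, were as low in the MWA library. Regulatory T-like cells held 36.7% and 33.2% of the Prdm1 UMIs. The CD8 effector-like (15.3 and 19.7 CPM), exhausted-like (17.6 and 17.6 CPM) and cycling-like classes (14.0 and 19.0 CPM) were close to the CD4 T-like level of 15.0 and 16 CPM. In the cycling-like class Prdm1 was, like Tox, higher in the histone cluster, 2.14-fold (1.14 to 4.27) and 1.83-fold (1.10 to 3.12) over the Mcm cluster. The histone cluster was also the one with more Foxp3, and the part of regulatory T cells was not tested. Among regulatory T-like cells, the 204 with a Prdm1 UMI had Il10, a cytokine gene that BLIMP1 is known to support, 1.63-fold (1.37 to 1.93) and Gzmb 1.21-fold (1.12 to 1.3) higher and Ccr7 at a ratio of 0.440 (0.263 to 0.697). The 141 regulatory T-like cells with a Lef1 UMI also had less Ccr7 (0.242, 0.0961 to 0.507), but Il10 went the other way, at 0.568 (0.415 to 0.762).

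**Figure D3:**
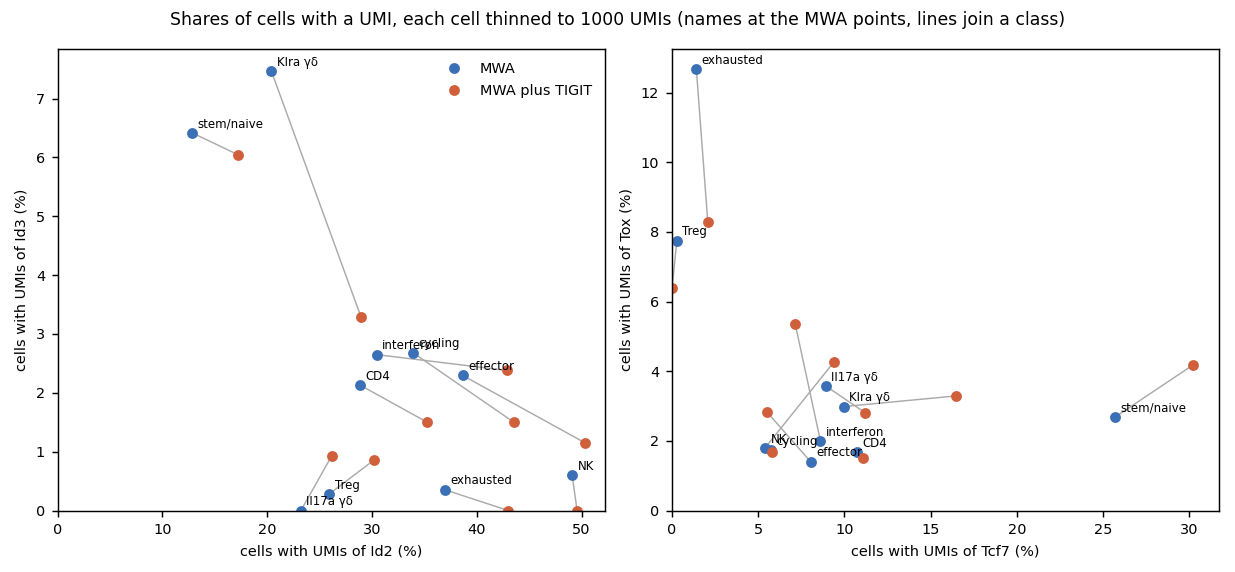
Percent of cells with a UMI after each cell was thinned to 1000 UMIs, Id3 against Id2 on the left and Tox against Tcf7 on the right, with 1 point per class and library and a grey line joining the MWA point (blue, named) to the MWA plus TIGIT point (orange). In effector-like cells the Id2 share is 38.6% in MWA and 50.4% in MWA plus TIGIT, and exhausted-like cells combine the highest Tox shares, 12.7% and 8.29%, with Tcf7 shares of 1.41% and 2.07%.

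The comparison of the libraries asks whether TIGIT blockade added to MWA shifted these factors in the distant tumor. Of the 90 pairs of a member and a class, 72 had at least 20 UMIs over both libraries, and 14 of these (19.4%) differed at least 1.5-fold, 6 higher and 8 lower in the MWA plus TIGIT library. Over all genes and the same 10 classes 16.3% of pairs did so, 11.2% higher and 5.11% lower. For 7 of the 14 the interval excluded no difference. In the sum of the 5 CD8 classes 0 of the 9 members passed 1.5-fold, against 9.06% of 11099 genes (5.97% higher and 3.09% lower), and for 6 members the interval excluded no difference. The median log2 ratio of all genes in that sum was 0.14, so ratios near it are at the middle of the genes. Lef1 in the CD8 sum, at 0.04, had −0.08 and −0.09 with the TMM and DESeq2 scalings, which take this shift out, and −0.24 without cells over 5000 UMIs, so it has no stable sign.

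By class, the members past 1.5-fold were 2 of 9 in effector-like cells, 1 higher and 1 lower, where 14.4% of all genes were (10.4% higher and 4.02% lower). Exhausted-like cells had 3 of 7, 2 higher and 1 lower, beside 18.1% of genes (13.8% and 4.33%), and interferon-induced-like cells 3 of 8, 1 higher and 2 lower, beside 21.3% (15.7% and 5.57%). Klra gamma-delta T-like cells had the most, 4 of 8 with 1 higher and 3 lower, beside 20% of genes (12.9% and 7.06%). Cd8b1 went from 38.8 to 111 CPM in this class, and the part of its make-up in these ratios was not tested. CD4 T-like cells had 1 of 8, higher, beside 11.4% (7.86% and 3.55%), and Il17a gamma-delta T-like cells 1 of 5, lower, beside 22.0% (13.5% and 8.52%). No member passed in the 4 other classes. The genes past 1.5-fold there were 20.6% in stem-like cells (14.6% higher and 6.03% lower, 6 members compared), 11.9% in cycling-like cells (8.71% and 3.17%, 9 members), 13.7% in regulatory T-like cells (7.95% and 5.77%, 5 members) and 19.2% in NK-like cells (12.3% and 6.86%, 7 members). With so few members in each class, these counts are descriptions only.

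Id2 had the most UMIs of the members that passed 1.5-fold. In effector-like cells it was at 1429 UMIs in the MWA library and 2808 in the MWA plus TIGIT library, a log2 ratio of 0.68 (0.59 to 0.78), against a median of 0.15 for all genes there. It was likewise higher in interferon-induced-like cells, with 377 CPM (326 to 433) and 584 CPM (527 to 644), a log2 ratio of 0.63 (0.38 to 0.88). The median of all genes there was 0.14, and the lowest Id2 ratio under the alternatives run was 0.49, under 1.5-fold. In cycling-like cells Id2 had 443 and 598 CPM, a log2 ratio of 0.43 (0.34 to 0.52). It was 0.46 (0.40 to 0.51) in the CD8 sum, from 459 to 629.7 CPM. The difference was not seen in exhausted-like cells (−0.04, −0.19 to 0.11) or stem-like cells (−0.11, −0.53 to 0.31), and it was smaller in CD4 T-like (0.26, 0.15 to 0.37) and regulatory T-like cells (0.10, −0.04 to 0.24). Macrophage or monocyte-like cells had a ratio of −0.15 (−0.19 to −0.11). After thinning, 34.0% (31.9 to 36.1) and 43.9% (41.7 to 46.0) of the cells in the CD8 classes had an Id2 UMI. Within the effector-like class Id2 was higher in the Trav16 cluster, at 488 and 821 CPM (0.75, 0.65 to 0.85), and not beyond counting error in the Cx3cr1 cluster, at 699 and 789 CPM (0.17, −0.08 to 0.43), and the difference between the clusters was not tested. Trav16 is a T cell receptor segment. Without the cells that had a Trav16 UMI the ratio was 0.48 in the effector-like class and 0.24 in the CD8 sum, both under 1.5-fold. With TMM and DESeq2 scaling the effector-like ratio was 0.55 and 0.53, also under 1.5-fold, and it was 0.53 with called doublets kept. In the effector-like class Actb moved with it, from 7633 to 11914 CPM, as did Cd3e, from 553 to 755 CPM, and their part in the Id2 difference was not tested.

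Id3 was lower in the MWA plus TIGIT library in some classes. In effector-like cells it had 71 and 48 UMIs, 25.2 CPM (19.7 to 31.8) and 13.9 CPM (10.3 to 18.5), a log2 ratio of −0.86 (−1.42 to −0.31). In Klra gamma-delta T-like cells the ratio was −0.64 (−1.25 to −0.06), from 76 and 37 UMIs, and in the CD8 sum −0.43 (−0.73 to −0.14), from 23.1 and 17.1 CPM. Interferon-induced-like cells had 14 and 8 UMIs, a ratio of −1.17 (−2.63 to 0.19) that includes no difference. So did the intervals of cycling-like cells, which had the most Id3 UMIs, 91 and 70 (−0.45, −0.92 to 0.02, and 0.73 from 18 UMIs without cells over 5000 UMIs), of CD4 T-like cells (−0.21, −0.80 to 0.38) and of stem-like cells (−0.19, −0.87 to 0.50). Outside the T and NK cells, Id3 was lower as well in macrophage or monocyte-like cells, from 12.1 to 7.81 CPM (−0.63, −0.84 to −0.41), and in B-like cells (−1.74, −2.84 to −0.73). Immediate early genes, a sign of recent stimulation or of handling, summed to 975 and 923 CPM in the CD8 classes.

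The T-box genes were higher in several classes, in libraries where the middle of all genes was higher too. The median log2 ratio of all genes was 0.15 in effector-like, 0.15 in cycling-like and 0.13 in exhausted-like cells. The Eomes and Tbx21 intervals of these whole classes include that median. In CD4 T-like cells the median was 0.10, just below the Tbx21 interval. Eomes in effector-like cells had 92 and 161 UMIs, a log2 ratio of 0.52 (0.14 to 0.90), and in cycling-like cells 93 and 134 UMIs, 0.46 (0.06 to 0.85), which turned to −0.85 without cells over 5000 UMIs. Tbx21 was at 0.48 (0.08 to 0.89) in effector-like cells, with 0.52 (0.07 to 0.99) in the Trav16 cluster and −0.13 (−1.03 to 0.82) in the Cx3cr1 cluster, which had 111 and 219 of the 796 and 973 cells. It was at 0.60 (0.03 to 1.18) in exhausted-like cells, from 51 to 56 UMIs, and 0.65 (0.12 to 1.18) in CD4 T-like cells, from 53 to 73 UMIs. Those in exhausted-like and CD4 T-like cells passed 1.5-fold, in classes where 13.8% and 7.86% of genes were that much higher, but not with TMM scaling (0.44 and 0.55) or DESeq2 scaling (0.47 and 0.54). In the CD8 sum Eomes was at 0.42 (0.18 to 0.66) and Tbx21 at 0.34 (0.10 to 0.57), and both differences kept about that size, 0.37 and 0.36, when each CD8 class was given the same weight in both libraries, a calculation added after the data had been seen.

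For the stem-like and exhaustion factors the sum and the classes differed. Tcf7 in the CD8 sum had a log2 ratio of 0.19 (0.05 to 0.34) but 0.06 with each class at the same weight in both libraries, and within effector-like cells it was lower, at −0.28 (−0.54 to −0.02). The Tcf7 interval in the sum includes 0.14, the median of all genes there. Tox in the CD8 sum was at −0.23 (−0.44 to −0.01), and at −0.06 with those weights. In exhausted-like cells Tox went from 195 to 99 UMIs, −0.51 (−0.88 to −0.16), and in regulatory T-like cells from 154 to 116, −0.37 (−0.73 to −0.01), whereas effector-like cells had 0.48 (−0.03 to 1.01). The thinned shares of exhausted-like cells with a Tox UMI were 12.7% (9.04 to 17.1) and 8.29% (4.81 to 13.1), which overlap. Bach2 in exhausted-like cells went from 23 to 31 UMIs, 0.90 (0.07 to 1.74), and this ratio turned to −0.60 when cells over 5000 UMIs were left out. Prdm1 was at 0.21 (−0.11 to 0.54) in the CD8 sum and at 0.05 (−0.32 to 0.43) in regulatory T-like cells, its main class. The Tcf7 difference in regulatory T-like cells, 8 against 1 UMI, was absent among cells picked by Foxp3 UMIs, with 7 and 8 UMIs in 465 and 409 cells. The remaining pairs past 1.5-fold all had intervals that include no difference. They were Tox in Il17a gamma-delta T-like cells (−1.07, −2.50 to 0.24) and in Klra gamma-delta T-like cells (−0.80, −1.82 to 0.15), Eomes in exhausted-like cells (−0.68, −1.71 to 0.27) and in Klra gamma-delta T-like cells (−1.0, −2.38 to 0.24), Bach2 in Klra gamma-delta T-like cells (0.74, −0.32 to 1.82) and Prdm1 in interferon-induced-like cells (−1.12, −2.41 to 0.09). Both Eomes values and this Bach2 value turned the other way without cells over 5000 UMIs.

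**Figure D4:**
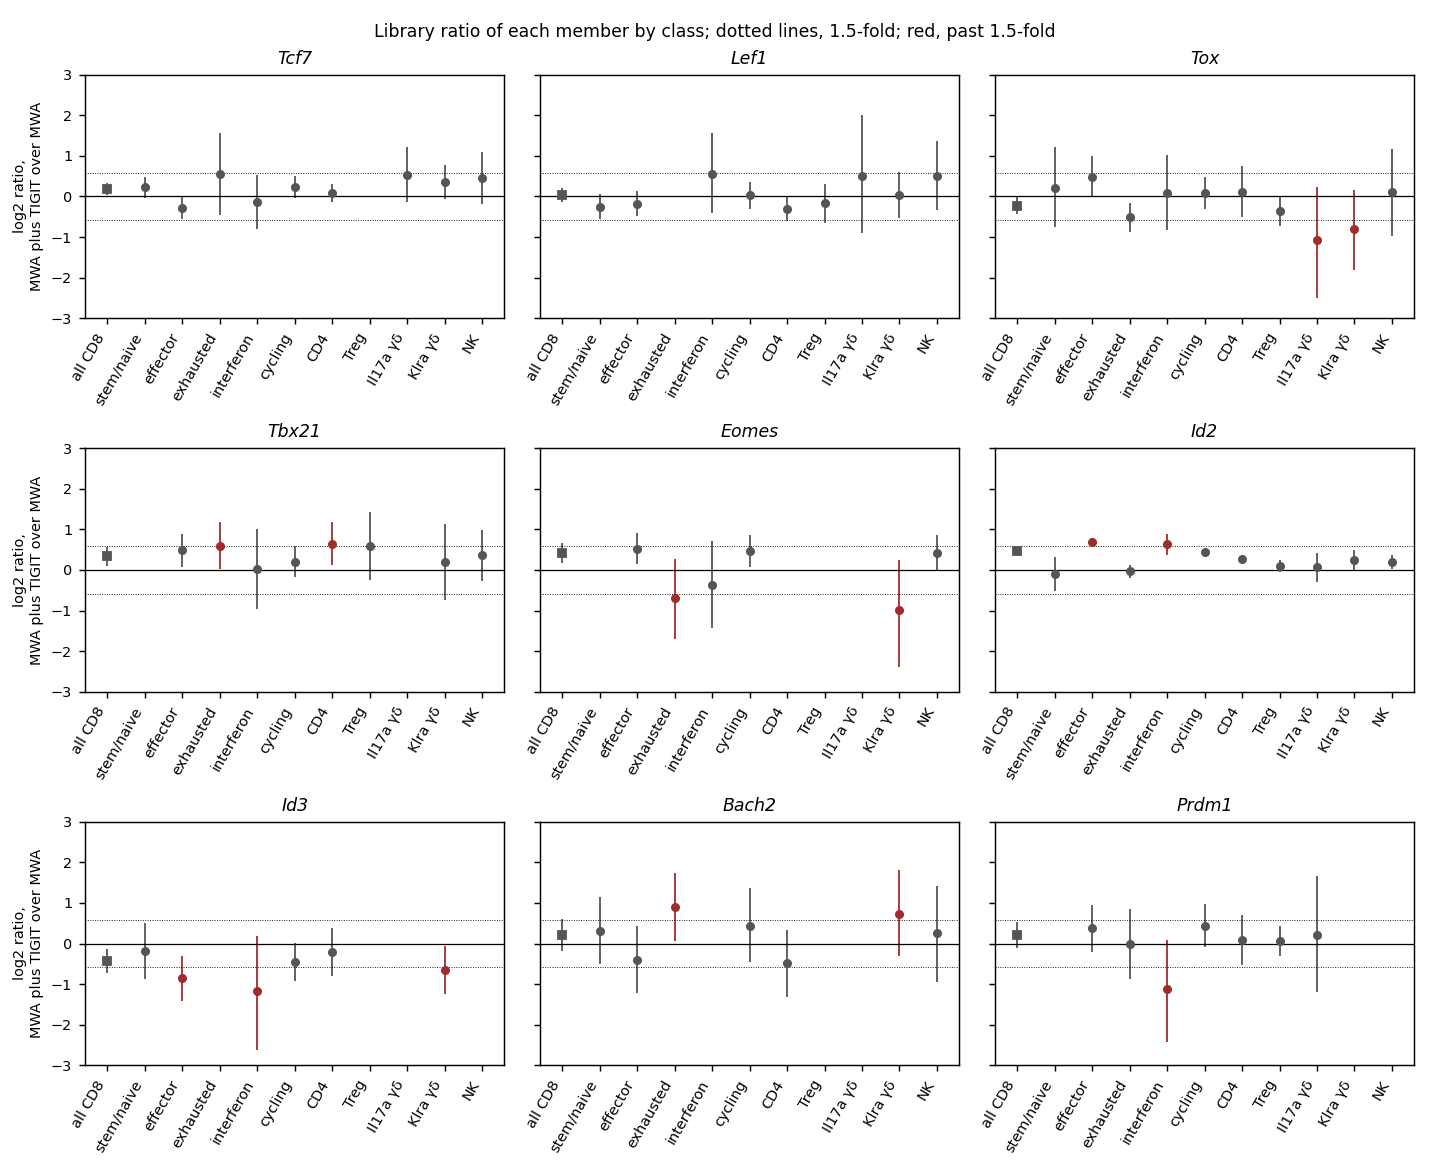
Log2 ratio of MWA plus TIGIT over MWA for each gene in the sum of the CD8 classes (square) and in each class with at least 20 UMIs (circles), with exact 95% counting intervals as bars, dotted lines at 1.5-fold and red for ratios past it. Values above 0 are higher in MWA plus TIGIT, as for Id2 in effector-like cells at 0.68, and values below 0 are lower, as for Id3 in the same cells at −0.86.

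Other genes of the same pathways were read from 5 lists in the CD8 sum, where 5.97% of all genes were past 1.5-fold higher and 3.09% lower. None of the 10 E protein and HMG box partner genes passed 1.5-fold, with a median log2 ratio of 0.21, the highest being the corepressor gene Tle3 (0.56, 0.37 to 0.76) and Ctnnb1, encoding beta-catenin (0.39, 0.13 to 0.65), and the lowest Tox4 at 0.03 and Tle5 at 0.11. Of 30 other T cell transcription factor genes with enough UMIs, 0 were that much higher and 1 lower, Zfp683, encoding HOBIT, named after its value was seen. Their median was 0.01, between Maf at 0.50 and Klf3 at 0.46 and, at the low end, Nr4a3 at −0.56 and Nr4a2 at −0.34, both induced by T cell receptor signals. Of 17 targets of the effector factors, 5 were past 1.5-fold higher and 0 lower, with a median of 0.39. Gzmk (0.96, 0.83 to 1.09) and Gzmb (0.78, 0.72 to 0.84) were highest and Il2rb (−0.10) and Il12rb2 (−0.02) lowest. Gzma, Gzmb, Gzmk, Prf1 and Ccl5 of this list are also markers that name the effector class. That class held 16.9% and 21.0% of the UMIs of the named cells, and no list was recomputed with each class at the same weight. Of 13 targets of the stem factors 1 was higher, Il6ra (0.63, 0.24 to 1.04), followed by Slamf6 (0.43), and 0 were lower, with Socs3 (−0.36) and Ccr7 (−0.18) at the low end and a median of 0.11. Of 10 genes of the exhausted state 1 was higher, Cd101 (0.62, 0.17 to 1.09), followed by Tigit itself (0.49, −0.05 to 1.04), and Tnfrsf9 (−0.44) and Cd244a (−0.29) were lowest, with a median of 0.03. The median of all genes was 0.14.

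The lists were also counted within single classes. In effector-like cells 4 of 12 stem factor targets were past 1.5-fold lower and 1 higher, against 4.02% and 10.4% of all genes, and the median of the list was −0.03. Among the lower ones were Ccr7 (−1.04, −1.56 to −0.53), Tnfsf8 (−0.84, −1.59 to −0.11) and Socs3 (−0.80, −1.16 to −0.44), and the higher one was Slamf6 (0.77, 0.18 to 1.38). In the same cells 5 of 16 effector targets were higher and 2 lower. In exhausted-like cells 5 of 10 stem factor targets were past 1.5-fold higher and 0 lower, against 13.8% of all genes higher: Cd200 (0.88, 0.51 to 1.24), Il7r (0.84, 0.44 to 1.24), Xcl1 (0.78, 0.70 to 0.86), Tnfsf8 (0.76, 0.49 to 1.02) and Ccr7 (0.73, 0.30 to 1.17). Cd200 is also among the markers that name the exhausted class, and Tnfsf8 among the leading genes of the CD4 T-like cluster. Cd4 stood at 14.6 and 53.6 CPM in exhausted-like cells, and the part of this difference in make-up was not tested. Other lists had higher genes there too, 4 of 9 E protein and HMG box partners with 0 lower, 4 of 27 other transcription factors with 0 lower, 3 of 10 genes of the exhausted state with 0 lower, and 4 of 14 effector targets with 2 lower. In cycling-like cells 3 of 13 stem factor targets were higher and 2 lower, against 8.71% and 3.17% of all genes. There 6 of 16 effector targets were higher and 0 lower, and 2 of 10 genes of the exhausted state were higher and 0 lower. Of 29 other transcription factors 1 was higher and 3 lower, and of 8 E protein and HMG box partners 0 passed. Ccr7 and Tnfsf8 were thus lower in effector-like and higher in exhausted-like cells of the MWA plus TIGIT library, a difference between classes that was not tested.

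Some genes followed single members closely over the 20 levels in classes and libraries, among 1286 genes compared. Nearest to Tcf7 was Klf3 (Pearson r of 0.88), with Hs3st3b1 (0.86) and Pdlim1 (0.85), and nearest to Lef1 was Klf2 (0.92), with Rflnb (0.86) and Frat2 (0.85). Tox was followed by Havcr2 (0.84), Adamts6 (0.84) and Rgs16 (0.84), Tbx21 by Arsb (0.90), Efhd2 (0.89) and Dapk2 (0.89), and Eomes by Itgax (0.90), Samd3 (0.89) and Gzma (0.89). Id2 was followed by Lgals3 (0.87), Reep5 (0.84) and Anxa2 (0.84), and Id3 by Tmem108 (0.87), Nsg2 (0.86) and A930005H10Rik (0.82). Bach2 had the loosest neighbors, Aff3 (0.78), Foxp1 (0.75) and Pim2 (0.75), and Prdm1 among the closest, Glrx (0.92), Tank (0.92) and Il2ra (0.92). Among the members, Tcf7 was nearest to Id3 (0.76) and Lef1 (0.71) and farthest from Prdm1 (−0.72) and Tox (−0.72). Klf2, Havcr2, Rgs16, Gzma and Il2ra are also markers that name classes, so their profiles over the classes are partly set by the naming. The points share libraries and cells of like depth, so these values only describe the profiles.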

How the data were processed

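UMI counts per gene and barcode, which the authors deposited as 10x matrices, were used as deposited. The submitters' processing notes name Cell Ranger 6.1.1 and mm10, while the file header gives Cell Ranger 4.0.0. The members and gene lists were chosen with earlier results of these data known, and the naming of clusters was settled after a first clustering had been seen. A barcode passed with 200 or more genes and no more than 10% of its UMIs from mitochondrial genes. Doublets were called by nearest neighbors among simulated doublets (simulated share 0.25, 20 principal components, expected 0.8% per 1000 barcodes), which removed 806 and 786 barcodes. Integration and clustering used Seurat 5.3.0 under R 4.3.3 (2000 variable features, 3000 integration features, 40 components, resolution 0.1 for all cells and 1 for T and NK cells), without the 9 members and other listed fate genes, 75 genes in all. Clusters were named by markers among their leading genes, and 3 of 15 stayed unnamed.

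Counts were summed per class and library and expressed as CPM, with exact Poisson intervals for levels, exact conditional binomial intervals for ratios and exact Clopper-Pearson intervals for shares (scipy 1.17.1, numpy 2.4.6, pandas 2.3.3, scikit-learn 1.9.0, Python 3.11.15). With 1 library per group there was no test. A ratio was called past 1.5-fold with at least 20 UMIs over both libraries. The text names all members, the 3 genes most like each by Pearson correlation of log2(CPM + 10) among genes with a profile SD of at least 0.5, and the 2 highest and 2 lowest of each list with at least 100 UMIs. Genes beyond this rule, such as those in the splits by a UMI and the list members past 1.5-fold within a class, were chosen after their values were seen. Alternatives were TMM scaling (edgeR 4.0.16), DESeq2 1.42.0 size factors, cells over 5000 UMIs left out, doublets kept, members allowed in clustering, resolutions 0.5 and 1.5, cells with a Trav16 UMI left out, cells picked by markers, and other minimums and folds. The scripts were tested on simulated data.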

Additional observations from a re-analysis of the deposited data

Results flagged for a closer look

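Lef1 in cycling-like cells went in opposite directions in the clusters that make up the class, although the difference between them was not tested. In the cluster led by Mcm transcripts it was at 49.0 CPM (38.9 to 60.9) in MWA and 30.5 CPM (22.9 to 39.7) in MWA plus TIGIT, a log2 ratio of −0.69 (−1.21 to −0.17), from 81 and 54 UMIs. In the cluster led by histone transcripts it was at 28.1 CPM (21.6 to 36.1) and 43.5 CPM (35.4 to 53.0), a log2 ratio of 0.63 (0.16 to 1.11), from 62 and 99 UMIs. The class as a whole had a ratio of 0.03 (−0.31 to 0.37), and Tcf7 stood at 0.23 and 0.24 in the same clusters. Neither cluster was CD8 cells only, with Cd4 at 38.1 and 32.7 CPM in the Mcm cluster and 24.5 and 33.8 CPM in the histone cluster.

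Id3 was high in an unnamed cluster of T cells led by Hspa1a, which enters no comparison of the classes. It stood at 211 CPM (152 to 285) in the 59 MWA cells and 90.1 CPM (48.0 to 154) in the 47 MWA plus TIGIT cells, 9.58-fold (6.79 to 13.2) and 5.45-fold (2.86 to 9.47) over all named T and NK cells. Heat shock genes summed to 5533 and 6539 CPM there against 160 and 192 CPM in the CD8 classes, and the part of the heat shock state in the Id3 level was not tested.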

How the results depend on the processing

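No paired analysis was possible because each group is 1 library, and for the same reason no replicate could be left out. The 14 of 72 pairs past 1.5-fold became 2 with cells picked by marker UMIs (29 pairs compared), 24 with a minimum of 1 UMI in each library, 7 with at least 50 UMIs, 33 at a fold of 1.3 and 3 at a fold of 2, and were 12 to 19 under the other alternatives run. In the CD8 sum the count of 0 became 3 at a fold of 1.3 and stayed 0 under the others run, the shared class weights added after seeing the data included. Without cells over 5000 UMIs, Eomes in exhausted-like cells turned to 1.32, Bach2 in exhausted-like cells to −0.60, Eomes in Klra gamma-delta T-like cells to 0.11 and Bach2 in those cells to −0.47, on the log2 scale, and the cause was not tested. Of 686 log2 ratios under alternatives, 651 lay inside the interval of the value reported, 31 outside it and 4 that were past 1.5-fold turned. The class with the highest level held for all 9 members except Id2, which led in effector-like cells at resolution 1.5, with doublets kept and with members allowed in clustering. It gives no value for cells picked by markers, and was not run for scalings. Id2 in effector-like cells was 0.46 with members allowed in clustering, 0.55 at resolution 1.5 and 0.48 without Trav16 cells. Few UMIs limit Bach2, Eomes and Id3 outside their main classes, and intervals hold no variation between mice.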
